A study of Mus musculus with 72 samples.

Results

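The regions described here were 239 sites of open chromatin at which MITF, TFEB and TFE3 were all enriched over input in wild-type (WT) microglia, and again in WT oligodendrocytes. They were chosen from chromatin immunoprecipitation sequencing (ChIP-seq) tags in 200-bp windows around peaks of open chromatin. Each window was scored as log2((factor + 1)/(input + 1)), with factor and input in tags per 10M tags of the merged library (M, mega). A site was kept where all 3 scores were at least 2 in microglia and all 3 were at least 2 in an oligodendrocyte peak whose centre lay within 200 bp. A peak that passed for all 3 in a cell type is called a three-factor site. The 239 sites came from 91770 microglial and 82577 oligodendrocyte peaks. They were 5.46% of the 4374 microglial three-factor sites and 2.602% of the 9148 oligodendrocyte three-factor sites. The WT scores are therefore the values that chose the sites, and they are given below as a description without a test.

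Nuclei came from the brain of C57BL/6 mice, WT or lacking Sgsh (SgshKO), and were fixed and sorted by nuclear antigens. Microglia were PU.1+ and negative for OLIG2 and NEUN, oligodendrocytes were OLIG2+ and negative for PU.1 and NEUN, and neurons were NEUN+ and negative for the other antigens. OLIG2 also marks oligodendrocyte precursors, so the OLIG2+ gate can hold both. Sgsh encodes a lysosomal sulfatase needed to break down heparan sulfate, and people without it have Sanfilippo syndrome. The factor ChIP-seq had 3 WT microglial replicates and 2 replicates in each other group, with no age in the labels, and only merged values per factor and genotype were used. These pools have no replicate error. Acetylation of histone H3 at lysine 27 (H3K27ac), a mark of active promoters and enhancers, was measured at 4 and 8 months in 2 libraries per genotype, age and cell type. Nothing in the labels says that replicates came from separate animals, so the p-values measure the spread between these libraries, which may be technical.

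MITF, TFEB and TFE3 are basic helix-loop-helix leucine zipper proteins of the MiT/TFE family. They bind E-boxes of the CACGTG type in the promoters of genes for lysosomal enzymes, the vacuolar proton pump and autophagy. Phosphorylation downstream of mTORC1 holds them in the cytoplasm, and starvation or lysosomal stress lets them enter the nucleus.

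Promoter sequences of 8 of the sites are printed here because they display the range from promoters with several E-boxes to promoters with none. The sequences are the overlap of the 200-bp site with the RefSeq promoter window of the gene, which runs from 250 bases before to 50 bases after the start (GRCm38.p6; the submitters' processing notes name mm10, the same assembly). Each reads 5′ to 3′ on the strand of the gene. Capitals mark the E-box CACGTG, its variant CATGTG and the AP-1 motif TGANTCA on either strand.
Naglu chr11:101069845-101070045 (+): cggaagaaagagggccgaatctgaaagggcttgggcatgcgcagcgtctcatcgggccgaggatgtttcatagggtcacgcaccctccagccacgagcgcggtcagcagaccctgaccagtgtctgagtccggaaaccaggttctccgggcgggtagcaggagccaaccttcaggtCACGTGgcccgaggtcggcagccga
Glb1 chr9:114400938-114401107 (+): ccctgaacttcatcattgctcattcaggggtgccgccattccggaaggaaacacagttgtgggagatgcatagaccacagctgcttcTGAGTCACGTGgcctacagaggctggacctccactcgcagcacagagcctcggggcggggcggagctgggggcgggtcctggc
Cipc chr12:86947227-86947372 (+): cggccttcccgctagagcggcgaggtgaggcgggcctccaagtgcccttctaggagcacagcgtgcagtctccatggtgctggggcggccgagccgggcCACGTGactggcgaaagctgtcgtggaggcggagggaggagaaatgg
Dvl2 chr11:70000450-70000621 (+): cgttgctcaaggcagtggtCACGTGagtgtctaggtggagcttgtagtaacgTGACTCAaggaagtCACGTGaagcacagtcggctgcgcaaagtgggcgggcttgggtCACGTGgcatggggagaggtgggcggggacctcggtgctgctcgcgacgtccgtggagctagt
Picalm chr7:90130005-90130205 (+): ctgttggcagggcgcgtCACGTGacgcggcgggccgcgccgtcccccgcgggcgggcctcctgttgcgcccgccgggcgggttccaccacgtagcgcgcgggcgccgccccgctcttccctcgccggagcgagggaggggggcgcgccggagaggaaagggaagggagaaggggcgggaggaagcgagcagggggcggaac
Akap11 chr14:78536932-78537110 (-): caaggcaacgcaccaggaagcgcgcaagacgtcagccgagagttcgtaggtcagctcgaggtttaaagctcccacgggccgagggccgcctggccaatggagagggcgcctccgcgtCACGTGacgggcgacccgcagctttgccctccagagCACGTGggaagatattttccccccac
Nampt chr12:32820117-32820317 (+): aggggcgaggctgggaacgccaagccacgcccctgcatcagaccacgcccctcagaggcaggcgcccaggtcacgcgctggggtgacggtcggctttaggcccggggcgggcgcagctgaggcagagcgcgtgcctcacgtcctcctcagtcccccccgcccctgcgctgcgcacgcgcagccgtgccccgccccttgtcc
Fnip2 chr3:79567732-79567929 (-): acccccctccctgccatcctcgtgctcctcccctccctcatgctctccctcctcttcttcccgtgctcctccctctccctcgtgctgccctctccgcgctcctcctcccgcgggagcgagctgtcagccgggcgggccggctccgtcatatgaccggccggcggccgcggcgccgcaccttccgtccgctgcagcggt
In Naglu the single E-box lay 78 bp from the centre of the site. In Glb1 the E-box lay 6 bp from the centre and overlapped an AP-1 motif. The Cipc E-box lay 1 bp from the centre, and the Dvl2 site held 3 E-boxes and 1 AP-1 motif. Picalm and Akap11 carried a CACGTG extended on both sides to a palindrome of 10 bases. Nampt and Fnip2 held none of the marked motifs within the site. The sites other than those of the lysosomal and nutrient sensing genes, Nampt and Cipc were chosen for display after their sequences were seen.

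E-boxes stood in a minority of the promoters at these sites. The 300-base promoter windows of RefSeq were available for 101 sites, which overlapped 127 windows. CACGTG (both strands) was present in 25.2% of those 127 windows, in 15.4% of 460 windows at three-factor sites of microglia alone, and in 12.01% of 1999 windows at three-factor sites of oligodendrocytes alone. It was present in 11.2% of 9932 windows at peaks open in both cell types and in 7.15% of all 32851 windows. The other motifs were set first against the windows open in both cell types and against all windows. The extended palindrome TCACGTGA was in 5.51% of the windows at the shared sites, 2.27% of those open in both and 0.974% of all. CATGTG, a variant E-box, was in 11.02%, 7.06% and 14.2%, and either E-box in 35.4%, 17.4% and 20.4%. The AP-1 motif TGANTCA was in 6.30%, 3.59% and 7.81%. The shares of both CATGTG and TGANTCA at the shared sites thus stood above those of open windows and below those of all windows. The PU.1-type motif GAGGAAGT was in 4.72%, 2.69% and 3.20%, and the SOX-type motif ACAAAG in 9.45%, 11.4% and 18.7%. The CCAAT box (CCAAT) was in 23.6%, 39.98% and 37.4%, and the GC box (GGGCGG) in 80.3%, 72.5% and 35.7%. Windows at three-factor sites of microglia alone held TCACGTGA in 3.91%, CATGTG in 13.3%, TGANTCA in 5.65% and GAGGAAGT in 11.5%. At three-factor sites of oligodendrocytes alone these shares were 2.95%, 6.75%, 4.05% and 3.35%. CATGTG and GAGGAAGT were thus more frequent at the sites of microglia alone than at the shared sites. A match is a description of letters and not a measured site, and windows that share a bidirectional promoter share sequence.

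Distances of E-boxes from the centre of the site are given as a description. Of the 101 sites with a promoter window, 28 (27.7%) had CACGTG in it, and 4 of these windows had more than 1. The nearest CACGTG lay at a median of 38.5 bp from the centre, within 25 bp in 10 sites and within 100 bp in 24. Only the window with the largest overlap with each site was searched, which limits how far a match can lie. No expected distance was computed. Median WT tags in microglia were 38.1 per 10M for MITF, 31.2 for TFEB and 83.6 for TFE3 at the 28 sites with CACGTG. They were 41.3, 37.8 and 75.3 at the 73 sites without it. All of these sites had passed the same score minimum, so the levels are a description. Sequences of the distal sites were not analysed here.

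**Figure D1:**
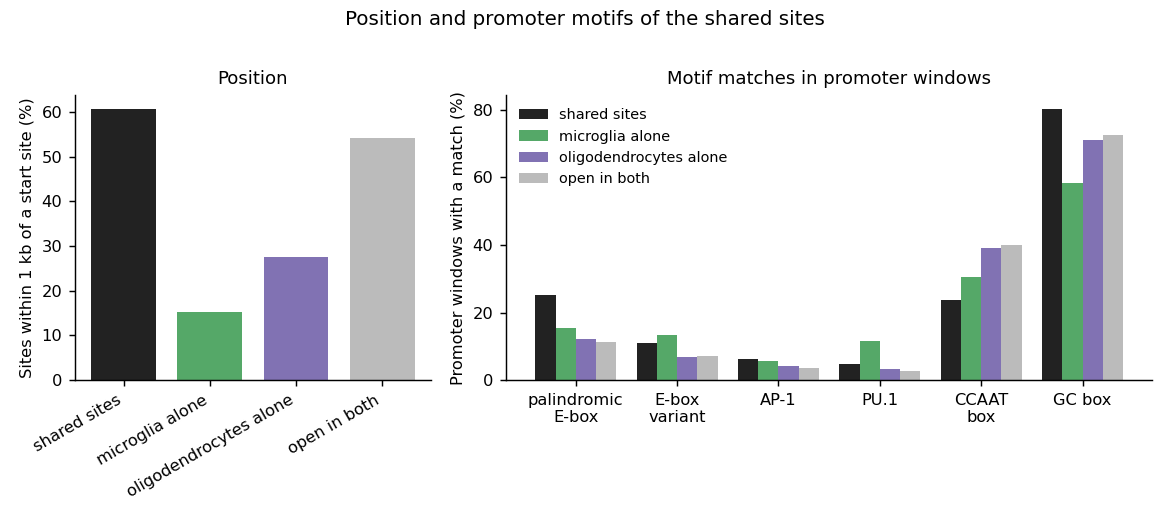
The left panel gives the percentage of sites within 1 kb of a start site and the right panel the percentage of 300-base promoter windows with a motif match, for the 239 shared sites (black), three-factor sites of microglia alone (green), of oligodendrocytes alone (purple) and microglial peaks with an oligodendrocyte peak within 200 bp (grey). The shared sites had 60.7% within 1 kb and CACGTG in 25.2% of windows, against 54.1% and 11.2% for peaks open in both cell types.

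The shared sites lay mostly at promoters. Of the 239, 145 (60.7%) were within 1 kb of a start site in the deposited annotation, against 15.2% of the 4135 three-factor sites of microglia alone and 27.5% of the 8910 of oligodendrocytes alone. Of the microglial peaks with an oligodendrocyte peak within 200 bp, 54.1% were near starts, a share much closer to that of the shared sites. The annotation placed 135 sites at promoters, 54 in introns and 37 between genes, and 58 (24.3%) were more than 10 kb from a start. The oligodendrocyte centre lay at a median of 42 bp from the microglial centre, and within 50 bp in 138 sites. A neuronal peak lay within 200 bp of 181 sites (75.7%). Of the 4374 microglial three-factor sites, 913 had an oligodendrocyte peak within 200 bp, and 26.2% of those 913 were shared. The 239 microglial peaks paired with 238 oligodendrocyte peaks and lay nearest to 234 genes on 20 chromosomes. Capg, Irf2bpl, Prag1, Mknk2 and Pmepa1 each had 2 sites, and these pairs are not independent.

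Lysosomal genes were among the 145 promoters, and the other gene lists had few members. The 3 lists of lysosomal genes held 97 genes, 87 of them with an open start in both cell types. A shared site lay within 1 kb of 7 of the 87 (8.05%), against 142 of 10462 genes with an open start in both (1.36%). The hydrolases were Naglu, which acts on heparan sulfate, Gusb, which acts on this and other glycosaminoglycans, and Glb1, the lysosomal β-galactosidase. The vacuolar ATPase list gave Atp6v1b2, a subunit of the cytosolic sector of the proton pump. The membrane list gave Cd63, a tetraspanin of late endosomes and lysosomes, Npc1, which moves cholesterol out of the lysosome, and Tmem175, a lysosomal cation channel. The Tmem175 site also overlapped the promoter window of another gene, Gak, which is on none of the lists. Of 35 genes of mTORC1 and nutrient sensing, only Fnip2, a partner of folliculin, had a site within 1 kb. No gene of the autophagy, MiT/TFE, clock or homeostatic microglia lists did, and of the disease-associated microglia list only Cd63 did, which is also on the membrane list. The lists are selections and do not hold every gene of a process. Cipc, an inhibitor of CLOCK with a site at -16 bp, was on none of them. Sites farther from a start lay nearest to Psap, which encodes the precursor of the saposins, at -15098 bp (upstream), to Sqstm1, the autophagy receptor p62, at -2359 bp, and to Sort1, Bhlhe41 and Nr1d1.

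More starts of these lists carried all 3 factors in 1 cell type than in both. In microglia a three-factor peak stood within 1 kb of 10 of 44 open hydrolase starts, 2 of 17 vacuolar ATPase starts and 11 of 30 lysosomal membrane starts. The share over all genes was 5.68% (746 of 13128). In oligodendrocytes the counts were 7 of 41, 4 of 17 and 11 of 31, against 20.1% of all genes (2406 of 11969). For autophagy genes the counts were 2 of 38 in microglia and 7 of 38 in oligodendrocytes, and for mTORC1 and nutrient sensing 3 of 32 and 8 of 32.

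The cell identity of the libraries was checked at the starts of marker genes. In the table of microglia, 9 of 10 microglial markers had a peak, with summed H3K27ac of 2509 to 2875 tags per 10M in WT and 2001 to 2381 in SgshKO libraries. Of 10 oligodendrocyte markers 5 had a peak there, summing to 273 to 301 in WT and 165 to 194 in SgshKO. Neuronal markers had 4 of 10 peaks, summing to 16.0 to 23.9 and 17.3 to 31.6. In the table of oligodendrocytes, 10 of 10 oligodendrocyte markers had a peak (2236 to 3088 in WT, 2138 to 2942 in SgshKO) and 2 of 10 microglial markers did (82.3 to 97.7 and 70.1 to 78.9). All 3 factors scored at least 2 at 0 of the 5 oligodendrocyte marker starts in microglia, and at 1 of the 2 microglial marker starts in oligodendrocytes. H3K27ac libraries held 12000879 to 15778229 tags in microglia, 21178752 to 34178145 in oligodendrocytes and 6059671 to 35485716.5 in neurons, and the factor pools held 22827269 to 52808841. The oligodendrocyte SgshKO library of replicate 2 at 4 months had the fewest tags of its table. It also had the weakest enrichment, with 29.2% of its tags in peaks against 43.2% to 58.6% in the other 7. Its unscaled median over all peaks was 13.7 tags per 10M against 19.6 to 25.02.

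In WT microglia TFE3 had the most tags at most of the shared sites, and in WT oligodendrocytes TFEB did. In microglia the median over sites was 42.4 tags per 10M for MITF (range 5.11 to 313), 37.5 for TFEB (3.75 to 286) and 90.2 for TFE3 (5.32 to 636), with 5.10 in input. Medians over all microglial peaks were 3.29, 4.69 and 6.44. In oligodendrocytes the medians were 20.4 for MITF (3.26 to 242), 50.0 for TFEB (5.11 to 800) and 37.4 for TFE3 (3.28 to 738), with 1.53 in input, and 2.98, 6.63 and 6.13 over all peaks. TFE3 was highest of the 3 at 207 sites in microglia, MITF at 27 and TFEB at 5. In oligodendrocytes TFEB was highest at 162 sites, TFE3 at 59 and MITF at 18. The same order held over all three-factor sites of each cell type, where TFE3 was highest at 77.0% in microglia and TFEB at 48.9% in oligodendrocytes. Different antibodies are not on 1 scale, so these orders describe the libraries and not the amounts of protein on DNA.

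Across the 239 sites the Spearman correlation of the mean WT score between the cell types was 0.156, within a set cut at a score of 2 on both sides. Tags of the factors within a cell type correlated at 0.817 to 0.877 between factors in microglia and at 0.624 to 0.884 in oligodendrocytes. Those factors share an input and a set of nuclei, and the sites were chosen on these values. The mean score was higher in oligodendrocytes at 174 sites and higher in microglia at 65, with a median input that was lower in oligodendrocytes. Among all three-factor sites of their own cell type the shared sites ranked near the middle. Their median percentile was 43.7, 46.6 and 51.7 for MITF, TFEB and TFE3 in microglia and 53.8, 64.1 and 57.3 in oligodendrocytes.

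**Figure D2:**
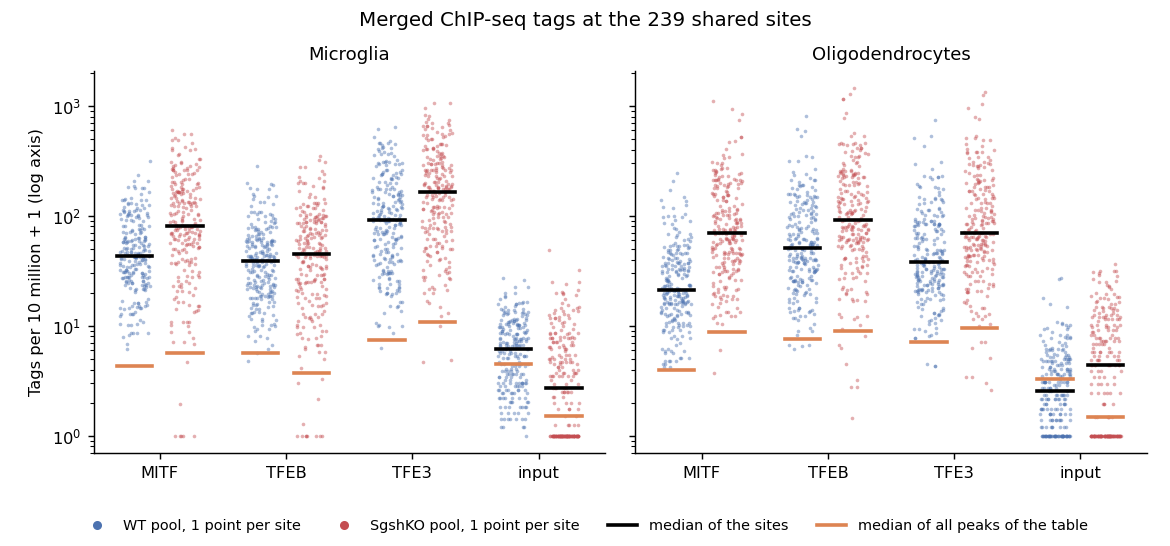
Each point is 1 of the 239 shared sites, plotted as tags per 10M + 1 on a log axis for the merged WT (blue) and SgshKO (red) pools of each factor and of input. Black bars are medians over the sites and orange bars medians over all peaks; in WT microglia the site median was 90.2 for TFE3 against 6.44 over all peaks.

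The sites with the highest minimum over the 6 WT scores were those nearest Dyrk1a (4.27), Rybp (3.92), Hs1bp3 (3.86), Sh3glb1 (3.75), Tmem86a (3.63), Hnrnpu (3.63), Ppcdc (3.57), Pnrc1 (3.53), Pmepa1 (3.39), Nampt (3.31), Gm34184 (3.23) and Sat1 (3.22). Those nearest Rybp, Hs1bp3, Ppcdc, Pmepa1 and Gm34184 lay 124016, 31724, 18878, 18787 and 39891 bp from the start. The Rybp site overlapped the promoter window of another gene, Gm33448. Dyrk1a encodes a protein kinase, Rybp a Polycomb component, Sh3glb1 endophilin B, Ppcdc an enzyme of coenzyme A synthesis, Nampt the rate-limiting enzyme of NAD salvage and Sat1 a polyamine acetyltransferase. The Dyrk1a site (chr16:94569345-94569545, at -761 bp from the start) had 179 MITF, 174 TFEB and 456 TFE3 tags per 10M in WT microglia over 7.76 in input. In WT oligodendrocytes it had 44.2, 137 and 86.9 over 1.34. The Nampt promoter had 104, 123 and 401 over 9.59 in microglia, and 36.6, 174 and 74.7 over an input of 0 in oligodendrocytes. None of these 12 genes was on the lysosomal or autophagy lists used here, which do not hold every gene of those processes.

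At the threshold, the weakest sites inside were those at Tmem175 (minimum score 2.00), Fmnl2 (2.00) and Fkbp15 (2.00). The nearest pairs outside it were at Ing3, Csf1 and Fbxl17, with minimum scores of 1.997, 1.996 and 1.995. Csf1, the ligand of the receptor that microglia need to survive, was thus just outside.

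Lysosomal promoters had widely different levels. The Naglu site (chr11:101069845-101070045) had the highest TFE3 value of all 239 sites in WT microglia, at 636 tags per 10M from 2271 tags (exact Poisson 95% interval 610 to 663). MITF was 313 and TFEB 194 there, over 9.39 in input, and in oligodendrocytes the values were 12.2, 116 and 116 over 2.10. Intervals cover counting error only, since tags without molecular identifiers are not independent molecules. The Glb1 site (chr9:114400938-114401138) had 11.7 for MITF from 32 tags (7.99 to 16.5), 19.2 for TFEB and 26.05 for TFE3 over 1.84 in microglia. It had 3.798 for MITF, 11.7 for TFEB and 9.41 for TFE3 over 0.191 in oligodendrocytes, where the input was 1 tag. Naglu was thus far above Glb1 in both cell types, although both enzymes degrade glycans in the lysosome.

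The other lysosomal promoters and Fnip2 had these values. Gusb (chr5:130002887-130003087) had 79.2, 45.3 and 82.3 tags per 10M for MITF, TFEB and TFE3 in WT microglia and 26.3, 24.2 and 23.6 in WT oligodendrocytes. Atp6v1b2 (chr8:69088628-69088828) had 52.6, 33.8 and 188, and 15.2, 52.8 and 21.02. Cd63 (chr10:128909659-128909859) had 41.6, 67.1 and 150, and 15.2, 125 and 100. Each of these 3 promoters had its highest microglial value for TFE3. Npc1 had 31.8, 58.6 and 112, and 14.9, 67.0 and 46.6. Tmem175 (chr5:108629737-108629937) had 16.4, 13.6 and 14.0, and 18.7, 40.5 and 24.5, the one lysosomal promoter of the 7 with all 3 factors higher in oligodendrocytes. Fnip2 (chr3:79567732-79567932) had 116, 70.3 and 262, and 27.1, 99.6 and 36.3.

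The largest differences between the cell types were at the sites nearest Tgfbi, Cipc and Lonp2, with higher scores in oligodendrocytes, and at Gm15246, Prag1 and Insig1, with higher scores in microglia. The mean score in microglia minus that in oligodendrocytes was -4.08 for Tgfbi, -3.84 for Cipc and -3.01 for Lonp2. Tgfbi encodes a matrix protein induced by TGF-β, Cipc an inhibitor of CLOCK and Lonp2 a peroxisomal protease. At the Tgfbi site (chr13:56582247-56582447, at -27239 bp from the start) MITF, TFEB and TFE3 were 44.9, 10.6 and 7.56 tags per 10M in microglia and 85.2, 339 and 268 in oligodendrocytes. At Gm15246, in the promoter of Hccs, the score difference was 2.33 and at Insig1, a regulator of sterol synthesis, 1.77. The input was 0 at the Tgfbi, Cipc and Lonp2 sites in oligodendrocytes, which raises their scores.

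Enrichment was measured again in the SgshKO pools, which the choice of sites did not use. In microglia a score of at least 2 was found at 216 sites (90.4%) for MITF, 195 (81.6%) for TFEB and 228 (95.4%) for TFE3, against 39.1%, 31.6% and 52.8% of all peaks. In oligodendrocytes it was found at 209 (87.4%), 219 (91.6%) and 212 (88.7%), against 47.1%, 44.7% and 48.9%. All 3 factors passed at 190 sites (79.5%) in microglia and 198 (82.8%) in oligodendrocytes, against 20.7% and 31.7% of all peaks. The three-factor sites of 1 cell type alone passed in their own cell type at 68.1% in microglia and 74.8% in oligodendrocytes. The high shares over all peaks go with a sparse SgshKO input, whose median over all peaks was 0.50 tags per 10M in microglia and 0.48 in oligodendrocytes, against 3.47 and 2.29 in WT. Its part in the shares was not tested. All 6 SgshKO scores passed at 162 sites (67.8%), and 3 or fewer passed at 24. All 12 of the sites with the highest minimum score passed in all 6.

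**Figure D3:**
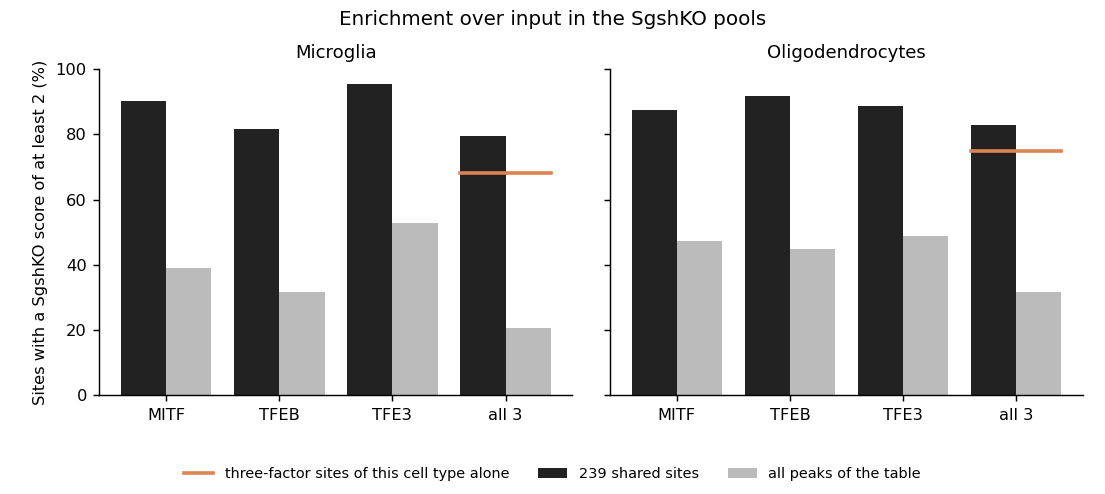
Bars give the percentage of the 239 shared sites (black) and of all peaks of the table (grey) whose score was at least 2 in the merged SgshKO pools, for each factor and for all 3 at once. The orange line marks the three-factor sites of that cell type alone, 68.1% in microglia and 74.8% in oligodendrocytes, below the 79.5% and 82.8% of the shared sites.

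Tags per 10M, which scale each pool to its library total, were larger in the SgshKO pools for all 3 factors in both cell types at 4 of the 7 lysosomal promoters, Naglu, Cd63, Atp6v1b2 and Tmem175. With this scaling the median log2 ratio over all peaks was itself 0, -0.18 and 0.39 for MITF, TFEB and TFE3 in microglia and 1.11, 0.16 and 0.52 in oligodendrocytes. With TMM scaling, described below, the median over the shared sites fell from 0.92 to 0.19 for microglial MITF. It fell from 0.90 to 0.04 for oligodendrocyte TFE3. Small increases, such as those of MITF at Naglu in microglia and of TFE3 at Atp6v1b2 in oligodendrocytes, therefore depend on the scaling. At Naglu, MITF, TFEB and TFE3 were 419, 308 and 1051 in SgshKO microglia and 212, 251 and 209 in SgshKO oligodendrocytes. At Cd63 they were 558, 206 and 610 in microglia and 244, 416 and 257 in oligodendrocytes. Cd63 had the largest ratio of the 7 for MITF in microglia. At Atp6v1b2 they were 224, 92.1 and 345, and 56.6, 105 and 29.7. At Tmem175 they were 49.1, 45.5 and 67.7, and 56.3, 90.2 and 69.5.

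TFEB went the other way at the remaining promoters in at least 1 cell type. Glb1 had 26.6, 14.5 and 42.4 in SgshKO microglia and 24.4, 7.01 and 33.7 in SgshKO oligodendrocytes, so that TFEB was lower than in the WT pool in both. Gusb had 157, 45.2 and 175, and 29.9, 21.5 and 50.4, with TFEB near its WT value in microglia and lower in oligodendrocytes. Npc1 had 89.5, 47.2 and 168, and 84.2, 77.98 and 87.8, with TFEB lower than WT in microglia alone. Outside the lysosomal lists, Fnip2 had 411, 181 and 529 in microglia and 99.7, 202 and 68.3 in oligodendrocytes. Sqstm1 had 26.7, 43.1 and 102 in WT and 258, 118 and 437 in SgshKO microglia, and 59.1, 148 and 89.5 in WT and 224, 236 and 217 in SgshKO oligodendrocytes. The pools have no replicates, so none of these differences was tested.

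The number of sites with a 2-fold difference between the pools depended on the scaling. With TMM scaling, which sets the bulk of peaks equal, MITF was at least 2-fold higher in SgshKO microglia at 52 sites and lower at 37, against 25.5% and 32.9% of all peaks. TFEB was higher at 38 and lower at 53 (18.8% and 41.3% of all peaks) and TFE3 higher at 23 and lower at 25 (16.3% and 22.4%). In oligodendrocytes MITF was higher at 67 and lower at 24 (32% and 27.1%), TFEB higher at 29 and lower at 14 (14.8% and 31%), and TFE3 higher at 9 and lower at 21 (14% and 28.5%). With scaling to the library total the counts were 112 and 22 for MITF in microglia (33.5% and 25.1% of all peaks), 53 and 41 for TFEB (21.7% and 35.6%) and 82 and 9 for TFE3 (32.3% and 15.5%). In oligodendrocytes they were 176 and 4 for MITF (52.4% and 12.9% of all peaks), 101 and 8 for TFEB (26.9% and 25.03%) and 102 and 7 for TFE3 (34.99% and 18.6%). The median over sites moved from 0.19 to 0.92 (log2) for microglial MITF and from 0.33 to 1.61 for oligodendrocyte MITF, and the median over all peaks was 0 under both scalings in microglia and went from 0.11 to 1.11 in oligodendrocytes. The denominators are the WT pools that chose the sites, so the shares of sites and of all peaks are given without reading a difference from them.

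H3K27ac was high at the shared sites in microglia and oligodendrocytes, and in neurons at those with a neuronal peak. The median site stood at percentile 78.8 to 82.4 of all peaks in the 8 microglial libraries and at 68.5 to 71.7 in the oligodendrocyte libraries. In the neuronal libraries it stood at 78.3 to 83.7, over only the 181 sites with a neuronal peak within 200 bp. Three-factor sites of 1 cell type alone stood at 82.4 to 84.6 in microglia and 66.6 to 69.0 in oligodendrocytes. Values below are TMM-scaled tags per 10M in 800-bp windows, and changes are on the log2(tags per 10M + 1) scale.

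In microglia, H3K27ac differed between SgshKO and WT at about as many of the shared sites as of all peaks. Of the 239 sites, 237 passed the filter on low counts (Wnk2 and Cmip did not). Over both ages 46 of them were called by limma at a false discovery rate (FDR) below 0.05, 32 higher and 14 lower in SgshKO, against 22.9% of all peaks (12.5% higher and 10.4% lower). At 4 months 28 were called, 22 higher and 6 lower (all peaks 12.2%, 7.87% higher and 4.32% lower). At 8 months 30 were called, 20 higher and 10 lower (all peaks 13.1%, 6.87% higher and 6.25% lower). Three-factor sites of microglia alone were called more often, at 34.4% (1391 of 4041) over both ages. No site was called for an interaction of genotype and age, as for 0% of all peaks. There 21 sites had an unadjusted p below 0.05 with limma, 20 with edgeR and 11 with DESeq2. Over all 69663 peaks tested, 4507, 4492 and 2641 did. EdgeR and DESeq2 called no site for the interaction.

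These counts rested in part on the scaling and on single libraries. Scaling to the library total gave 20 higher and 30 lower over both ages, against 5721 and 11473 of 69663 peaks tested (24.7% called). At 4 months it gave 13 and 6, against 3286 and 3230 of all peaks (9.35%). At 8 months it gave 12 and 17, against 2783 and 6354 (13.1%). The median change of all peaks was -0.20 with this scaling and -0.02 with TMM over both ages. At 4 months these medians were -0.15 and 0.004, and at 8 months -0.25 and -0.03. The 46 sites kept their sign under it, and 34 kept their call. Without replicate 1 of WT at 4 months 17 sites were called at 4 months, and 14 without replicate 2 of SgshKO at 4 months. Without replicate 1 of WT at 8 months 19 were called at 8 months, and 18 without replicate 2. In bulk nuclei, fewer nuclei of a type and less mark per nucleus cannot be told apart. The sums over microglial and over oligodendrocyte markers given above were both lower in all 4 SgshKO libraries, and their part in the changes was not tested.

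Sites higher in SgshKO had changes of 0.38 to 4.63 (median 0.97), and 16 of the 32 were at least 2-fold. Those lower had -1.72 to -0.24 (median -0.57), and 4 of the 14 were at least 2-fold. The changes at 4 and at 8 months correlated across the 237 sites (Pearson r 0.76, 0.30 among the 191 sites not called), and the ages have separate libraries in both genotypes. All 4 SgshKO libraries lay outside the range of the 4 WT libraries at 43 sites, 35 of them called, against 22.7% of all peaks. Sites farther than 1 kb from a start were called in 28 of 92 (30.4%) and sites within 1 kb in 18 of 145 (12.4%). For all peaks the shares were 26.5% and 13.6%.

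Of the 7 lysosomal promoters with a site, 3 rose in SgshKO microglia and 4 did not pass the test. Cd63 had 86.4 and 113 tags per 10M in WT at 4 months, 114 and 92.6 in WT at 8 months, 240 and 292 in SgshKO at 4 months and 270 and 280 in SgshKO at 8 months. It was above the WT range in all 4 SgshKO libraries (log2 change over both ages 1.41, SE 0.13, limma FDR 7.33e-12). Atp6v1b2 had 27.2 and 57.1, then 34.3 and 17.95 in WT, against 57.4 and 67.1, then 58.4 and 53.4 in SgshKO. The genotypes overlapped through replicate 2 of WT at 4 months, and the change was 0.89 (SE 0.24, limma FDR 0.00467). Glb1 had 96.8 and 83.2, then 88.2 and 91.2 in WT, against 121 and 137, then 117 and 109 in SgshKO. All 4 SgshKO libraries were above the WT range, with a small change of 0.42 (SE 0.15, limma FDR 0.0345) that lost its call with scaling to the library total and without any of 6 of the 8 libraries.

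Naglu, the site with the most TFE3, did not pass the test. It had 105 and 104, then 115 and 111 tags per 10M in WT, against 114 and 141, then 148 and 131 in SgshKO, and 1 SgshKO library lay within the WT range (log2 change 0.29, SE 0.14, limma FDR 0.148). Gusb had a change of -0.02 (FDR 0.957), Npc1 of 0.11 (FDR 0.745) and Tmem175 of 0.25 (FDR 0.318). The nutrient sensing gene Fnip2 rose, from 88.0 and 79.9 at 4 months and 59.4 and 61.8 at 8 months in WT to 142 and 160, then 154 and 152 in SgshKO (change 1.08, SE 0.15, limma FDR 3.57e-07). Its groups did not overlap.

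Over the whole lists, at the open peak nearest each start, 12 of 44 tested hydrolase starts were higher in SgshKO microglia and 0 lower, 6 and 1 of 17 vacuolar ATPase starts, and 7 and 0 of 30 lysosomal membrane starts. The counts were 5 and 0 of 38 for autophagy, 5 and 0 of 30 for mTORC1 and nutrient sensing, 19 and 0 of 28 for disease-associated microglia and 0 and 8 of 18 for homeostatic microglia. They were 2 and 3 of 15 for the clock genes and 1 and 0 of 3 for the MiT/TFE family, with 699 and 584 of 10824 starts of all genes. The list medians were 0.25, 0.41, 0.20, 0.03, 0.10, 0.94, -0.25, 0.06 and 0.20, and the median of all starts was -0.02. With scaling to the library total the counts were 6 and 0, 3 and 1, 2 and 0, 1 and 2, 3 and 0, 15 and 0, 0 and 11, 1 and 3, and 0 and 0, with 373 and 1184 of all starts, and the medians of the autophagy, mTORC1 and clock lists were below 0 at -0.16, -0.10 and -0.14. In oligodendrocytes limma called 0 starts on each list, and 3 higher and 3 lower among all 11588 starts.

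The 5 sites with the smallest p among those that rose lay nearest Sqstm1, Rell1, Gm15569, Cd63 and Kif13b. The Sqstm1 site (chr11:50213079-50213279) had 16.0 and 27.2, then 30.6 and 27.3 tags per 10M in WT microglia, against 174 and 148, then 190 and 163 in SgshKO (log2 change 2.72, SE 0.19, limma FDR 2.48e-15). The groups were far apart at both ages. The Rell1 site, in an intron 30099 bp from the start (chr5:63938698-63938898), had 0 and 5.55, then 7.96 and 10.1 in WT, against 105 and 130, then 123 and 138 in SgshKO (4.63, SE 0.36, limma FDR 8.01e-14). This was the largest change of the 237 sites, from a WT level near 0. Gm15569, in an intron of the ceramide kinase gene Cerk, had 103 and 110, then 76.5 and 99.1, against 266 and 293, then 288 and 280 (1.54, SE 0.13, limma FDR 4.72e-13). Kif13b, a kinesin gene (site at -12706 bp), had 92.8 and 125, then 87.5 and 104, against 281 and 273, then 234 and 255 (1.35, SE 0.13, limma FDR 2.29e-11).

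Further sites that rose were picked after their values were seen. Gadd45b, a stress-induced gene, had a change of 2.89 (SE 0.31) at a site in an intron of Gng7, the metallothionein gene Mt1 of 1.51 (SE 0.18) at its promoter, and Psap of 0.77 (SE 0.13) at its site -15098 bp from the start. Their limma FDR were 4.42e-10, 1.09e-08 and 6.94e-06, and SgshKO was above the WT range in all 4 libraries at each. Fmnl2, one of the weakest sites by factor score, had a change of 1.82 (SE 0.26, limma FDR 3.92e-07), and Insig1, one of the sites with higher scores in microglia, of 0.76 (FDR 0.0150), which lost its call with scaling to the library total and without either of the SgshKO libraries of 4 months.

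The 5 sites with the smallest p among those that fell lay nearest Trim33, Crybb1, Ndufb9, Pmepa1 and Zcchc24. The Trim33 site, between genes and 122208 bp from the start (chr3:103401401-103401601), had 186 and 174, then 180 and 140 in WT microglia, against 67.0 and 49.8, then 51.9 and 37.9 in SgshKO (log2 change -1.72, SE 0.16, limma FDR 2.27e-11). Crybb1 (chr5:112255521-112255721), at its promoter, had 591 and 585, then 533 and 485, against 364 and 413, then 332 and 402 (-0.54, SE 0.09, limma FDR 3.74e-06). The genotypes did not overlap at either. Ndufb9, in an intron of Mtss1, changed by -1.44 (SE 0.30, limma FDR 0.000223). Pmepa1, an inhibitor of TGF-β signalling and one of the 12 sites with the highest minimum score, changed by -0.74 (SE 0.18, limma FDR 0.00217). It had 142 and 76.6, then 97.9 and 114 in WT, against 71.4 and 73.8, then 64.9 and 44.7 in SgshKO. Zcchc24 changed by -0.68 (SE 0.18, limma FDR 0.00361).

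**Figure D4:**
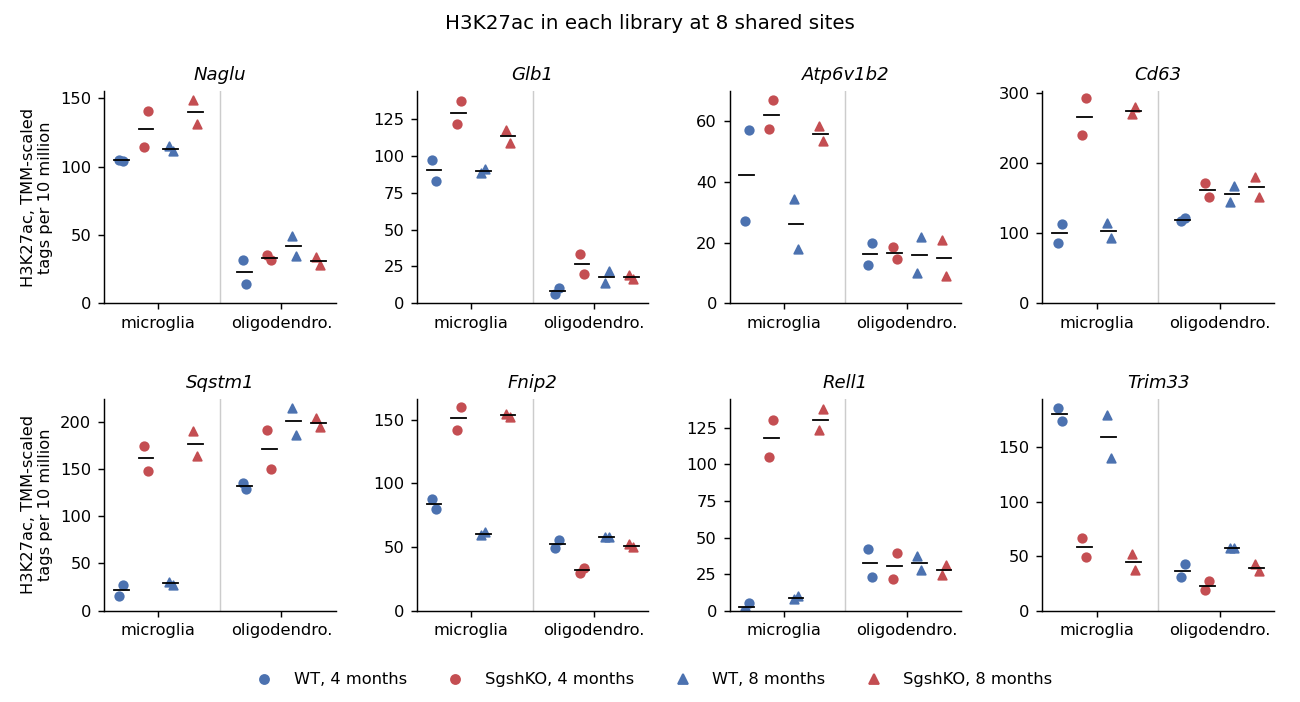
H3K27ac in TMM-scaled tags per 10M (axes start at 0) is shown in every library at 8 shared sites, in WT (blue) and SgshKO (red) at 4 months (circles) and 8 months (triangles), with bars at the mean of 2 libraries. At Cd63, Sqstm1, Fnip2 and Rell1 all 4 microglial SgshKO libraries lay above the 4 WT libraries and at Trim33 below, while the oligodendrocyte libraries overlapped over both ages at Cd63, Sqstm1, Fnip2 and Rell1. At 4 months alone the oligodendrocyte genotypes did not overlap at Cd63, Sqstm1 and Fnip2, as at 93 of the 238 tested sites.

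In microglia the pool ratios are described by H3K27ac call. At the 32 sites where H3K27ac rose, the median SgshKO over WT pool ratio (TMM, log2) was 1.25 for MITF, 0.97 for TFEB and 0.68 for TFE3. At the 14 sites where it fell, the medians were -0.94, -1.05 and -1.20, and at the 191 sites not called 0.06, -0.26 and 0.05. These levels depend on the scaling. In tags per 10M, scaled to the library total, the WT and SgshKO medians of MITF were 45.8 and 43.7 at the 14 sites. They were 47.8 and 204.5 at the 32 sites and 41.6 and 76.2 at the 191. With TMM, MITF was at least 2-fold higher at 20 of the 32, at 0 of the 14, at 32 of the 191 and at 25.5% of all peaks. Across the 237 sites the Pearson correlation of the H3K27ac change with the pool ratio was 0.48 for MITF, 0.38 for TFEB and 0.55 for TFE3 in microglia, and -0.02, -0.12 and 0.05 in oligodendrocytes. These are descriptions across sites that share their pools and libraries. The denominators are the WT pools that chose the sites, and the correlation over all peaks was not computed. Whether the pattern is particular to these sites was not tested. At Trim33, WT microglia had 49.3, 57.7 and 237 tags per 10M for MITF, TFEB and TFE3, and SgshKO microglia 51.2, 19.6 and 88.4. At Rell1 they had 24.5, 41.5 and 174 in WT and 287, 197 and 695 in SgshKO.

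In oligodendrocytes 1 shared site was called at 1 age and none over both. At 4 months limma called 1 of 238 sites, a lower one, against 0.204% of all peaks (0.103% lower). An unadjusted p below 0.05 was found at 31 sites and at 8630 of all 78411 peaks tested. The called site lay nearest Tmem30a, a flippase subunit gene named here after its value was seen. It had 28.1 and 30.0 tags per 10M in WT and 7.48 and 7.35 in SgshKO (log2 change -1.84, SE 0.41, limma FDR 0.0360), and 20.8 and 27.7 against 25.1 and 25.2 at 8 months. EdgeR and DESeq2 called 0 sites at 4 months, with 30 and 23 at an unadjusted p below 0.05 (7460 and 6876 of all peaks). Leaving out replicate 1 of WT at 4 months gave 6 calls with limma, leaving out replicate 2 gave 3, and leaving out any of the other 6 libraries gave 0.

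At 8 months limma called 0 sites (all peaks 0.00893%, 7 sites at an unadjusted p below 0.05), as did edgeR and DESeq2 with 7 each. Over both ages limma called 0 (all peaks 0.138%, 22 sites unadjusted), as did edgeR with 20 and DESeq2 with 21. For the interaction limma called 0 (all peaks 0.0408%, 16 sites unadjusted), as did edgeR with 11 and DESeq2 with 9. Over all 78411 peaks the unadjusted counts for limma, edgeR and DESeq2 were 2781, 2986 and 2625 at 8 months. They were 6832, 6088 and 6304 over both ages and 4260, 4160 and 3790 for the interaction. The genotypes did not overlap over both ages at 7 sites, against 3.93% of all peaks.

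The same sites can be set side by side in the 2 cell types, whose tables were normalized separately, so the difference of the changes was not tested. Cd63 in oligodendrocytes had 117 and 122, then 145 and 167 in WT, against 171 and 151, then 181 and 152 in SgshKO (log2 change 0.26, limma FDR 0.535). Sqstm1 had 135 and 129, then 214 and 186, against 191 and 150, then 203 and 194 (0.18, limma FDR 0.704). Glb1 had 6.24 and 10.6, then 13.8 and 21.9, against 33.7 and 19.8, then 19.1 and 16.1, with a change of 0.78 (SE 0.35, limma FDR 0.498). Fnip2 had 49.1 and 55.9, then 57.9 and 57.8, against 29.9 and 33.8, then 52.6 and 49.7 (-0.44, limma FDR 0.500). Changes at Naglu, Gusb, Atp6v1b2, Npc1 and Tmem175 were 0.10, 0.47, -0.01, 0.40 and -0.07, none of them called, with limma FDR of 0.590 to 0.998.

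Over all sites the Pearson correlation of the changes in the 2 cell types was 0.096 across 237 sites. Of the 32 sites that rose in microglia 25 had a change above 0 in oligodendrocytes (median 0.11), and of the 14 that fell 10 had one below 0 (median -0.15). The median was -0.01 for the sites not called. The changes at 4 and at 8 months in oligodendrocytes correlated at 0.14. In neurons 180 of the 181 sites with a peak were tested. Limma called 0 in either age or in their combination, as for 0% of all peaks. For 4 months, 8 months and the combination there were 20, 6 and 12 sites at an unadjusted p below 0.05 with limma, 13, 7 and 11 with edgeR and 13, 6 and 11 with DESeq2, and neither of those tools called a site. Over all 98038 peaks these counts were 8868, 1326 and 4705 with limma. They were 6302, 2077 and 3641 with edgeR and 5550, 1671 and 3830 with DESeq2. The interaction gave 0 calls and 11 sites unadjusted with limma, against 4544 of all peaks. Leaving out replicate 2 of SgshKO at 4 months gave 2 calls at 4 months.

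**Figure D5:**
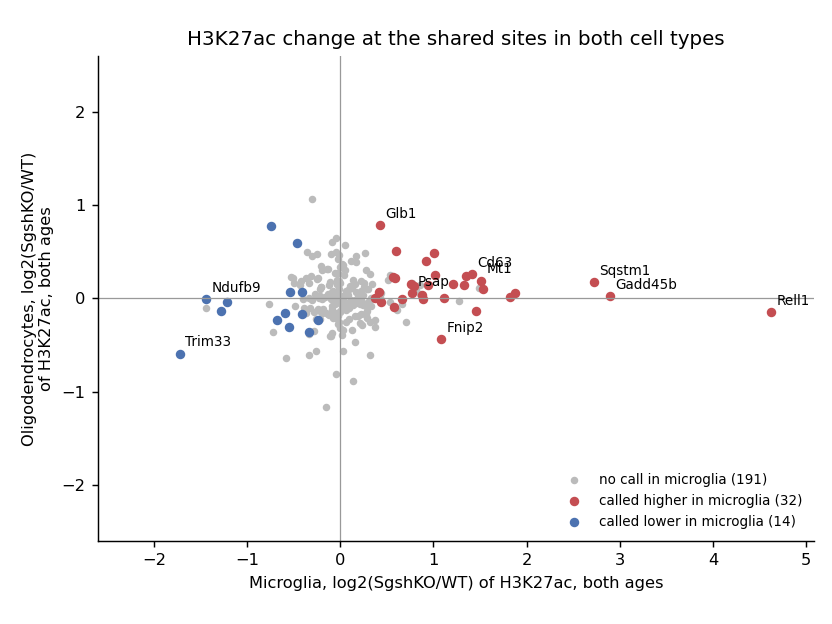
Each point is a shared site, with its log2 change of H3K27ac in SgshKO over WT across both ages in microglia (horizontal) and in oligodendrocytes (vertical), coloured where microglia were called higher (red, 32) or lower (blue, 14). Over all tested sites the microglial changes spread from -1.72 to 4.63 and the oligodendrocyte changes from -1.16 to 1.07. At the sites called in microglia the oligodendrocyte changes lay between -0.59 and 0.78.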

How the data were processed

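The series' labels list 72 samples. Used here were 24 H3K27ac ChIP libraries, and 27 factor ChIP and 9 input samples that the deposited tables hold as merged pools. Per the file headers, the deposited signal is HOMER tag counts per 10M tags, around peaks of open chromatin, in 800-bp windows for H3K27ac and 200-bp windows for the factors. The submitters' processing notes name Bowtie2, HOMER, DESeq2 and mm10, with versions not given in the sources used here. Multiplying by the header totals gave whole tags for 100% of low values (steps of 0.5 tag in the 8-month neuronal and oligodendrocyte ChIP). Microglial H3K27ac input headers repeat the ChIP totals, and those inputs were not used.

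Scores used a pseudocount of 1 and were rounded so that an exact 2 counts as 2. H3K27ac was tested per cell type on all peaks passing edgeR's filterByExpr, as log2(TMM-scaled tags per 10M + 1), with limma (trend) over the 4 genotype and age groups and Benjamini-Hochberg FDR below 0.05. The recovered tags were also tested with edgeR and DESeq2. Other alternatives were another scaling, filter or pseudocount, a replicate block and leaving out each library. The limma procedure was tested on simulated data. Cell types were not compared in 1 model, since their tables were normalized separately.

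Sites were named by the nearest gene in the deposited annotation. The text names the 12 with the highest minimum score, those within 1 kb of a start on a gene list, the 5 called in each direction with the smallest p, the 3 nearest the threshold on each side, and the 3 at each end of the difference between cell types. Members, lists and tests were chosen with earlier results of these data known. R 4.3.3, limma 3.58.1, edgeR 4.0.16, DESeq2 1.42.0, Python 3.11.15, numpy 2.4.6, pandas 2.3.3, scipy 1.17.1 and matplotlib 3.10.9 were used.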

Additional observations from a re-analysis of the deposited data

How the results depend on the processing

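The number of shared sites was 605, 65 and 16 with a minimum score of 1.5, 2.5 and 3, and 128 with a pseudocount of 2, all 128 among the 239. With a minimum score of 1 the SgshKO pools passed at 89.5% of sites for microglial TFEB and at 96.7% for each factor in oligodendrocytes. Scaling to the library total, which also raised the share of all peaks 2-fold higher, gave 2-fold higher and lower counts of 112 and 22 for microglial MITF, 82 and 9 for microglial TFE3, and 176 and 4, 101 and 8, and 102 and 7 for oligodendrocyte MITF, TFEB and TFE3. The single oligodendrocyte call at 4 months became 0 with edgeR, DESeq2 and a fit on the compared groups alone.

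Same-numbered libraries did not deviate together (correlations of -0.025 to 0.016), so the numbers were not taken as pairs. A replicate block gave 46 microglial calls over both ages, 28 at 4 months and 32 at 8 months, and 0 in oligodendrocytes at 4 months. Leaving out 1 library gave 35 to 46 microglial calls over both ages, 14 to 30 at 4 months, 18 to 32 at 8 months and 0 to 1 for the interaction. It gave 0 to 6 in oligodendrocytes and 0 to 2 in neurons at 4 months, and 0 to 0 elsewhere in those cells.

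Of the named sites, 4 uncalled ones crossed 0. Leaving out 1 library gave changes of -0.147 to 0.0861 for Gusb and -0.0147 to 0.296 for Npc1 in microglia, and of -0.222 to 0.297 for Naglu and -0.218 to 0.233 for Atp6v1b2 in oligodendrocytes. Library totals gave -0.0396 for Naglu in oligodendrocytes and -0.0769 for Npc1 in microglia. The cause was not tested. The factor pools have no replicates, so only counting error bounds their values.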
